A study of Mus musculus with 2 samples.

Results

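The S100 genes described here are 8 genes of small calcium-binding proteins that myeloid cells make: S100a8, S100a9, S100a4, S100a6, S100a10, S100a11, S100a1 and S100a13. They were chosen by symbol from a table of 12860 genes, and all 8 had reads in both libraries. The table gives whole bone marrow of 1 mouse with the Srsf2 P95H change on 1 allele, a female of 14 weeks, and of 1 mouse with unchanged Srsf2 (WT), a male of 12 weeks, both on a C57BL/6 background. Srsf2 is a splicing factor, and both mice carried R26CreERT2, a tamoxifen-inducible Cre recombinase at the widely expressed Rosa26 locus, and were given tamoxifen in vivo. The comparison addresses what P95H expressed from the gene's own locus does to marrow transcripts. With 1 mouse per genotype there is no replicate check and no test, and genotype, sex, age and individual cannot be told apart.

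S100 proteins are small proteins with paired EF-hands, the helix-loop-helix folds that bind calcium, and most act as dimers that grip a partner protein when calcium rises. S100a8 and S100a9 together form calprotectin, an abundant protein of the neutrophil cytosol that withholds zinc and manganese from microbes and, once released, acts on receptors such as Tlr4. S100a10 and S100a11 are best known as partners of annexins, which bind membranes in a calcium-dependent way.

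Summed over the table, counts came to 42366695 for the P95H mouse and 44733445 for the WT mouse. Levels are CPM as the authors scaled them, read counts divided by an effective library size. A difference is log2(CPM + 1) of the P95H library minus that of the WT library, where the added 1 understates genes with few reads, and 2-fold means a difference of at least 1 in size. Intervals in brackets are 95% intervals that cover counting error only, since reads without molecular identifiers are not independent molecules and mice were not replicated. The marrow was not sorted, so a difference in the number of cells of a type and a difference in RNA per cell cannot be told apart. Marker genes of neutrophils, monocytes, eosinophils, B cells, T cells, natural killer cells, erythroid cells, megakaryocytes, stroma and progenitors all had reads in both libraries.

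All 8 S100 genes had a higher level in the P95H library by the authors' scaling, and 6 of them under each scaling tried. By the authors' scaling the differences ran from 0.06 (S100a1) to 1.36 (S100a6) with a median of 0.55, beside a median of -0.0035 over all genes of the table, of which 49.7% lay above 0. Of the 8, S100a6 alone was at least 2-fold higher and 0 were lower, where 1.76% of all genes were at least 2-fold higher and 2.1% lower. At 1.5-fold, 4 of the 8 were higher (S100a6, S100a9, S100a8 and S100a11), where 7.05% of all genes were. The direction of S100a10 and S100a1 depends on the scaling: both were lower in the P95H library with plain totals of the listed counts, at -0.07 and -0.12. Plain totals move the median of all genes by -0.17.

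**Figure D1:**
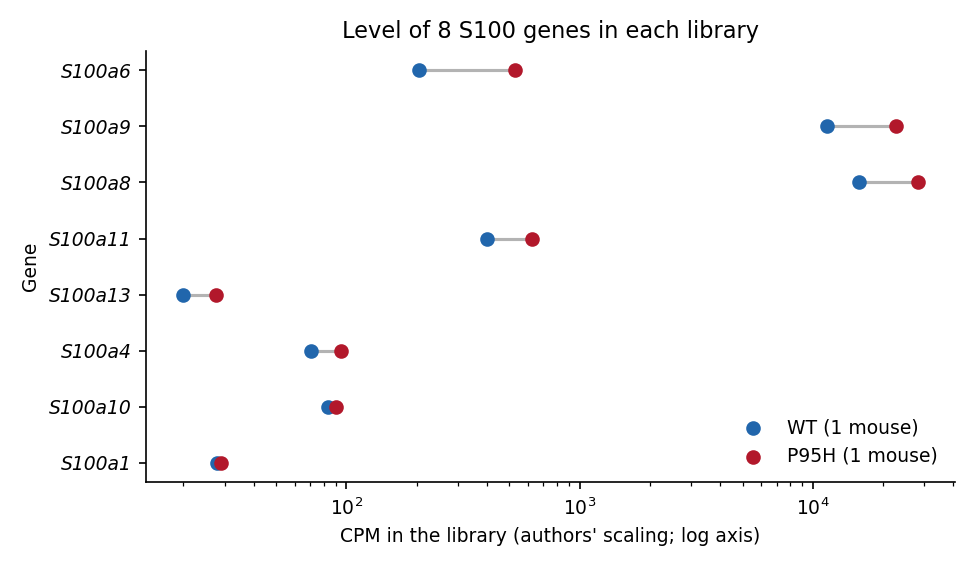
Level of each S100 gene in the WT library (blue) and the P95H library (red), 1 mouse each, in CPM on a log axis. S100a8 and S100a9 lie above 10000 CPM in both libraries, and the widest gap between libraries on the log axis is that of S100a6 (205 against 527 CPM).

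The calprotectin genes S100a8 and S100a9 had the most reads of the 8. S100a8 (Entrez 20201) gave 1122195 counts from P95H marrow and 757510 from WT marrow, which is 28269 and 15821 CPM. S100a9 (Entrez 20202) had 902083 and 549240 counts, or 22725 and 11471 CPM. The P95H library was the higher one for both genes. By the authors' scaling the ratio was 1.79 (1.78 to 1.79) for S100a8 and 1.98 (1.97 to 1.99) for S100a9. With that scaling S100a9, at a difference of 0.99, lay just under the 2-fold size. With the 3 other library totals tried, the ratio ran from 1.56 to 1.62 for S100a8 and from 1.73 to 1.80 for S100a9. Both genes together took 4.78% of all listed counts in the P95H library (4.77 to 4.78, exact binomial) against 2.92% in WT (2.92 to 2.93). By number of reads S100a8 ranked 2 of 12860 genes in P95H marrow and 4 in WT marrow, and S100a9 ranked 4 and 6.

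The difference between libraries was not the same for both chains of calprotectin. The P95H library held 1.24 S100a8 reads for each S100a9 read and the WT library 1.38, a ratio of 0.902 (0.898 to 0.906), which does not depend on how the libraries are scaled. This describes reads of 1 mouse each and was not checked in further mice.

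The windows at the annotated starts of S100a8, S100a9, S100a6 and S100a4 are shown because these genes lie in 1 stretch of chromosome 3 and differed unequally between the libraries. Each runs from 250 bases before to 10 bases after the start in RefSeq's GRCm38.p6, 5′ to 3′ on the gene's strand. The S100a8 window is chr3:90668821-90669080 on the + strand, S100a9 is chr3:90695712-90695971 on the - strand, S100a6 is chr3:90612644-90612903 on the + strand and S100a4 is chr3:90603520-90603779 on the + strand. Capitals mark matches to the motifs named after the sequences.
S100a8: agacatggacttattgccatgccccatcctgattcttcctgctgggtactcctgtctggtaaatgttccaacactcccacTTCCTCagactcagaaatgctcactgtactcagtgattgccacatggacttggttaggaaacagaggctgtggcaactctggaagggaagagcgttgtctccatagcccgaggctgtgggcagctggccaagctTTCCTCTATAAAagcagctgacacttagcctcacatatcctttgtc
S100a9: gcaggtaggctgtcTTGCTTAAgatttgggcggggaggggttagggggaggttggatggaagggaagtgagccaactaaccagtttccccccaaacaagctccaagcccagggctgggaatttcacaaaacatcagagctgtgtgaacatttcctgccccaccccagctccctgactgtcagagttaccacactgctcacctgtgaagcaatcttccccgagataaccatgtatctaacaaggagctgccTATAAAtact
S100a6: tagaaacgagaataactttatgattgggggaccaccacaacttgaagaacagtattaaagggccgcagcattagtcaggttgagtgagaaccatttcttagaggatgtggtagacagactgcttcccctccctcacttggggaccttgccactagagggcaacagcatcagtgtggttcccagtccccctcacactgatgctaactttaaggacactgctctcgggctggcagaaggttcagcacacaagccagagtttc
S100a4: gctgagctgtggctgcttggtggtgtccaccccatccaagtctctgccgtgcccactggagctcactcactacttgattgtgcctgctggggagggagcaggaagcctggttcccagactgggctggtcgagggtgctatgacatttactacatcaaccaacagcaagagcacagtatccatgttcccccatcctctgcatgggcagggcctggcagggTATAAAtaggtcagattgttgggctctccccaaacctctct

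Of the 8 genes, 7 had a promoter entry. Each 300-base entry (250 before and 50 from the start) was searched on both strands for letters typical of C/EBP sites (TTGCNNAA), PU.1 sites (GAGGAA), AP-1 sites (TGANTCA), STAT sites (TTCNNNGAA) and the TATA box (TATAAA), motifs that were picked with the results known. TATAAA lay 30 bases before the annotated start of S100a8, 31 before that of S100a4 and at the annotated start of S100a9, and was found in 3 of 7 entries, where 13.6% of all 32851 promoter entries hold it. The PU.1 letters occurred in the entries of S100a8 (at 2 places, the nearer one next to its TATAAA without overlap), S100a4 and S100a11, 3 of 7 against 28.3% of all entries. The S100a4 match begins at base 270 of its entry, after the annotated start and past the end of the printed window. The C/EBP letters occurred in S100a9 (1 of 7 against 10.8%) and the AP-1 letters in S100a11 at 2 places (1 of 7 against 7.81%), while the STAT letters occurred in 0 of 7 (8.30% of all). The S100a6 window, of the gene with the largest ratio, held none of the 5. A match of letters is a description and shows no binding.

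S100a6, or calcyclin, is a calcium sensor that binds annexins and the calcyclin-binding protein Cacybp. S100a6 (Entrez 20200) gave 20920 counts from P95H marrow and 9793 from WT marrow, or 527 and 205 CPM. Its ratio of 2.58 (2.52 to 2.64) was the largest of the 8, and its difference of 1.36 ranked 86 from the top among 12860 genes. The gene stayed past 2-fold under all 7 scalings and pseudocounts tried, at 1.17 or more. Against the calprotectin genes summed, S100a6 reads were 1.38 times as frequent in the P95H library as in the WT library (1.35 to 1.41).

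S100a4, also called metastasin, binds non-muscle myosin (Myh9) and is made by myeloid and mesenchymal cells. S100a4 (Entrez 20198) had 3746 and 3367 counts in the P95H and WT libraries, or 94.4 and 70.3 CPM. The P95H library was modestly the higher one, with 1.34 times the WT level (1.28 to 1.41), a difference of 0.42. Relative to S100a6, its neighbour on chromosome 3, S100a4 reads were 0.521 times as frequent in the P95H library as in the WT library (0.494 to 0.549). GENCODE vM21 lists a further gene, Gm42674, over exons of S100a4 on the same strand, so its counts could have been split or doubled by the authors' counting and are uncertain.

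The annexin partners differed from each other. S100a11 (Entrez 20195) gave 24873 counts from P95H marrow and 19270 from WT marrow, or 627 and 402 CPM. Its ratio was 1.56 (1.53 to 1.59) by the authors' scaling and 1.36 with plain totals. S100a10 (Entrez 20194), which joins annexin 2 in a complex at the plasma membrane and is unusual in the family because its EF-hands have lost calcium binding, had 3584 and 3988 counts, or 90.3 and 83.3 CPM. Its ratio was 1.08 (1.04 to 1.13) by the authors' scaling, 0.949 with plain totals, 0.984 with totals that leave out haemoglobin and the top 20 genes by reads, and 0.968 with totals that leave out the S100 genes, so no direction is given for it. S100a10 reads were 0.696 times as frequent per S100a11 read in the P95H library as in the WT library (0.663 to 0.731).

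S100a1 and S100a13 were the members with the fewest reads. S100a1, best known from heart muscle, where it binds regulators of calcium release, had 1152 and 1327 counts (Entrez 20193), or 29.0 and 27.7 CPM. The ratio of 1.05 (0.967 to 1.13) included 1 within counting error, and it was 0.917 with plain totals. S100a13, known for a part in the release of Fgf1 and Il1a from cells without a signal peptide, had 1093 and 950 counts (Entrez 20196), or 27.5 and 19.8 CPM, a ratio of 1.39 (1.27 to 1.52). The genes lie head to head in the reference, and S100a1 outnumbered S100a13 by 1.05 reads to 1 in P95H marrow and 1.40 to 1 in the WT library, a ratio of 0.755 (0.670 to 0.850).

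**Figure D2:**
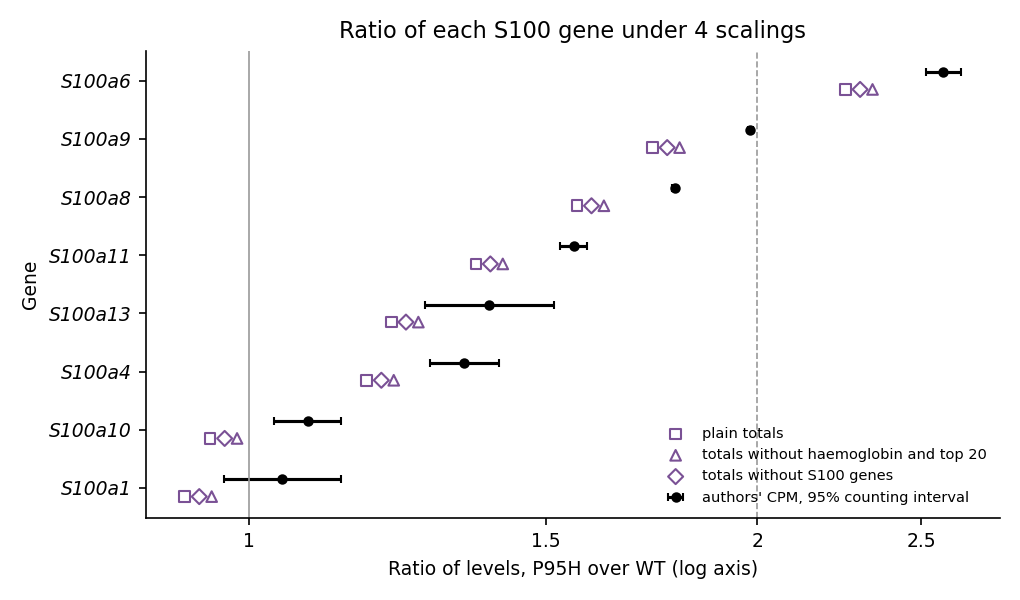
Ratio of levels, P95H over WT, for each S100 gene on a log axis. Black points use the authors' CPM with 95% counting intervals, open symbols use 3 other library totals, and lines mark 1 and 2. S100a6 lies beyond 2 under every scaling shown, S100a9 lies just under 2 by the authors' CPM, and S100a10 and S100a1 lie on both sides of 1.

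Among the 28 pairs of members, the ratio of one gene's reads to the other's differed between the libraries beyond counting error in 26. The pairs whose interval held 1 were S100a4 with S100a13 (0.967, 0.875 to 1.07) and S100a10 with S100a1 (1.04, 0.944 to 1.13). These intervals say that the members differed unequally between the 2 libraries sequenced, and carry no error between mice. The most unequal pair of the 28 was S100a6 with S100a1, at 2.46 (2.26 to 2.67).

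Levels of different genes were compared per length, as CPM per kilobase of the RefSeq-linked transcript in GENCODE vM21, whose lengths run from 486 bases (S100a8) to 731 bases (S100a6). On this scale the order was the same in both libraries: S100a8, S100a9, S100a11, S100a6, S100a4, S100a10, S100a1, S100a13. S100a8 stood at 58167 CPM per kilobase in P95H marrow and 32553 in WT marrow. S100a11, the next after the calprotectin genes, stood at 1226 and 788, and S100a13, the lowest, at 38.5 and 27.7. With 1 mouse per group the spread behind this order is not known. By ratio, the closest neighbours in this order were S100a4 and S100a10 in the WT library, at 141 and 122 CPM per kilobase. In the P95H library they were S100a1 and S100a13, at 42.9 and 38.5.

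**Figure D3:**
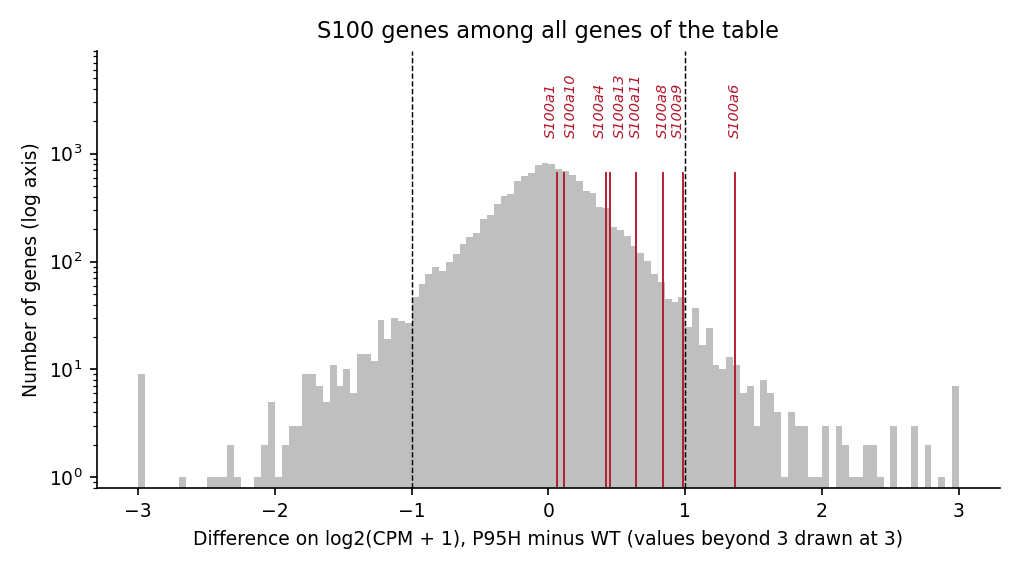
Number of genes (log axis) by difference on log2(CPM + 1), P95H minus WT, over all 12860 genes, with red lines for the S100 genes and dashed lines at 2-fold. Values beyond 3 in size are drawn at 3. S100a1 and S100a10 lie in the middle of the distribution, and S100a6 at 1.36 lies in its upper tail, where 1.76% of genes are past 2-fold.

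Summed neutrophil markers, like the calprotectin genes, had the higher level in P95H marrow. The 6 secondary granule markers, made at the myelocyte stage, had a summed level of 53849 CPM in P95H marrow and 26773 in WT marrow, a ratio of 2.01, with 6 of 6 above 0 and 3 at least 2-fold higher by the authors' scaling. Of these 6, 0 were past 2-fold with plain totals, 2 with totals that leave out haemoglobin and the top 20 genes and 1 with totals that leave out the S100 genes, a check added after seeing the data. The 7 mature neutrophil markers summed to 8150 and 4280 CPM, a ratio of 1.90 (1.89 to 1.91), with 7 of 7 above 0 and 1 at least 2-fold higher, where 49.7% of all genes lay above 0 and 1.76% were at least 2-fold higher. The 5 primary granule markers, made at the earlier promyelocyte stage, had a summed ratio of 1.41 (3673 and 2604 CPM, 5 of 5 above 0), and the 7 monocyte markers 1.43 (2448 and 1715 CPM, 6 of 7 above 0), with 0 of either list past 2-fold. By single gene the primary granule ratios ran from 1.32 (Mpo, 78805 of the 145823 reads in P95H marrow) to 1.61 (Ctsg). The lowest secondary granule ratio, that of Camp, was 1.60.

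Relative to these lists within the same library, the members spread widely, and this comparison needs no scaling. Per read of the secondary granule list, S100a9 reads were 0.985 times as frequent in the P95H library as in the WT library (0.981 to 0.989), S100a8 reads 0.888 times (0.885 to 0.892) and S100a6 reads 1.28 times (1.25 to 1.31). The other 5 members lay lower against that list, from 0.774 for S100a11 to 0.521 for S100a1. Ngp alone gave 908540 of the 2137632 reads of that list in P95H marrow. Its genes had ratios from 1.60 (Camp) to 2.25 (Lcn2), and the counting intervals against the sum do not cover that spread. Against the monocyte list, which has the smaller summed ratio, S100a4 stood at 0.940 (0.896 to 0.986), S100a13 at 0.972 (0.890 to 1.06), S100a11 at 1.09 (1.07 to 1.11) and S100a6 at 1.81 (1.76 to 1.85). S100a6 was the single member with a ratio above 1 against all 4 lists of neutrophil stages and monocytes. The part of these cell types in the S100 values was not tested.

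**Figure D4:**
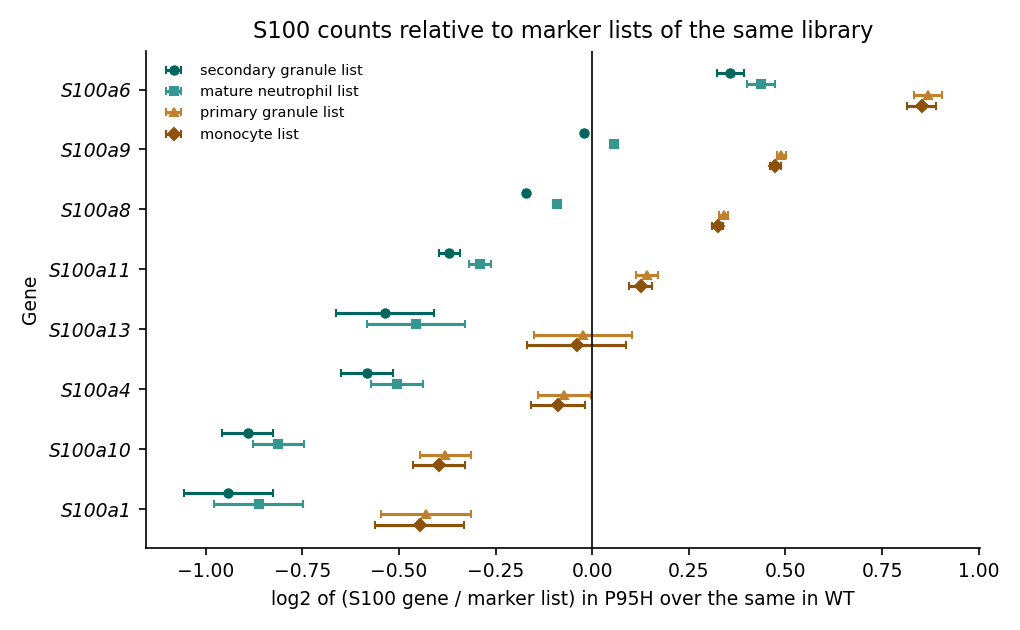
For each S100 gene, the log2 of its counts per count of a marker list in the P95H library over the same in the WT library, with 95% counting intervals. Circles are the secondary granule list, squares mature neutrophil, triangles primary granule and diamonds monocyte. S100a9 lies near 0 against the secondary granule list (-0.02) and the mature neutrophil list (0.06), and S100a6 lies above 0 against all 4.

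Summed markers of other lineages were lower in the P95H library. The ratio of summed levels was 0.291 (0.283 to 0.300) for the 7 B cell markers, with 7 of 7 at least 2-fold lower, beside 2.1% of all genes (140 and 482 CPM), 0.535 (0.530 to 0.539) for the 5 eosinophil markers (1843 and 3447 CPM) and 0.560 (0.558 to 0.562) for the 8 measured erythroid markers (7567 and 13513 CPM). The ratio ran from 0.194 for natural killer cell markers to 0.726 for progenitor markers over the natural killer cell, T cell, megakaryocyte, stromal and progenitor lists. The 4 natural killer cell markers had few reads (117 and 727 counts in all, or 2.95 and 15.2 CPM). Each was below 1 CPM in P95H marrow and exceeded the table's limit of 1 CPM in WT marrow alone, which favours a low ratio. At least 2-fold lower were 4 of 4 by the authors' scaling and 0 with a pseudocount of 5. None of these markers was at 0 in either library, and their part in the S100 values was not tested.

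Receptors and adaptors of extracellular S100 proteins differed in both directions. Of the 10 listed, 3 were at least 2-fold higher, 1 was lower and 6 lay between, the median difference being 0.14, beside 1.76% higher and 2.1% lower over all genes. The lipopolysaccharide co-receptor gene Cd14 gave 20131 counts from P95H marrow and 4884 from WT marrow, a ratio of 4.97 (4.82 to 5.13). Tlr4, the receptor that works with Cd14 and through which calprotectin signals, had 2111 and 1180 counts, a ratio of 2.16 (2.01 to 2.32). Tlr4 was past 2-fold under only 3 of the 7 scalings and pseudocounts tried, and its ratio was 1.89 with plain totals. Mcam, an adhesion molecule that has been described as a calprotectin receptor on tumour cells, had 769 and 350 counts, a ratio of 2.65 (2.33 to 3.02), and its difference of 1.29 fell under the 2-fold size with a pseudocount of 5 (0.99).

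The other receptor genes lay on both sides of 1. Myd88, the adaptor below Tlr4, had a ratio of 1.95 (1.84 to 2.07), and Ly96, the Tlr4 co-receptor MD-2, had few reads (152 and 133) and a ratio of 1.38 (1.09 to 1.75). The lymphocyte activation marker Cd69 gave 2177 counts from P95H marrow and 5702 from WT marrow, a ratio of 0.461 (0.438 to 0.484), and the scavenger receptor Cd36 had 2821 and 6069, a ratio of 0.561 (0.536 to 0.586) that was 0.491, past 2-fold, with plain totals. Nptn stood at 0.933. Ager, which encodes RAGE, a receptor of S100 proteins and of advanced glycation end products, had 117 and 150 counts and a ratio of 0.941 (0.732 to 1.21); it was chosen after its values were seen.

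Among 18 measured intracellular partners, 1 was at least 2-fold higher, 0 were lower and 17 lay between, where 1.76% of all genes were higher and 2.1% lower. The median was 0.55, and 11 of 18 lay above 0, beside 49.7% of all genes. The count of higher partners was 0 under the 3 other library totals. Annexin 1 (Anxa1), a partner of S100a11, gave 99443 counts from P95H marrow and 56975 from WT marrow, a ratio of 2.11 (2.08 to 2.13) that was 1.84, not past 2-fold, with plain totals. Annexin 2 (Anxa2), the partner of S100a10, had 24148 and 14899 counts, or 608 and 311 CPM, a ratio of 1.95 (1.92 to 2.00), where S100a10 itself was at 1.08. Annexin 11 (Anxa11), which binds S100a6, stood at 1.79 (1.73 to 1.85), while Cacybp, chosen after its values were seen, stood at 0.965 (0.915 to 1.02). The 6 genes of the phagocyte NADPH oxidase, to which calprotectin brings arachidonic acid, had differences between 0.52 and 0.71, with Cybb at 0.71 and Ncf1 at 0.63.

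Transcription factors of the list that act on myeloid genes were mostly higher without passing 2-fold. Of 9 regulators 0 were past 2-fold in either direction, where 1.76% of all genes were higher and 2.1% lower. Of the 9, 8 lay above 0, beside 49.7% of all genes, and the median difference was 0.56. With the difference in brackets, Cebpb, a factor of emergency granulopoiesis, had 451 CPM in P95H marrow and 264 in WT marrow (0.77), Stat3 had 285 and 173 (0.71), Spi1, which encodes PU.1, had 360 and 228 (0.66), and Cebpd had 138 and 91.0 (0.59). The 1 regulator below 0 was Cebpa, the factor of early granulocyte commitment, at -0.05, chosen after its values were seen. With plain totals 6 of the 9 lay above 0, where the median of all genes was -0.18. Cebpe went from 0.19 to -0.002 and Gfi1 from 0.06 to -0.12 with that scaling, both named after their values were seen. The ratio of Gfi1 by the authors' scaling was 1.05 (0.957 to 1.14), which includes 1.

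**Figure D5:**
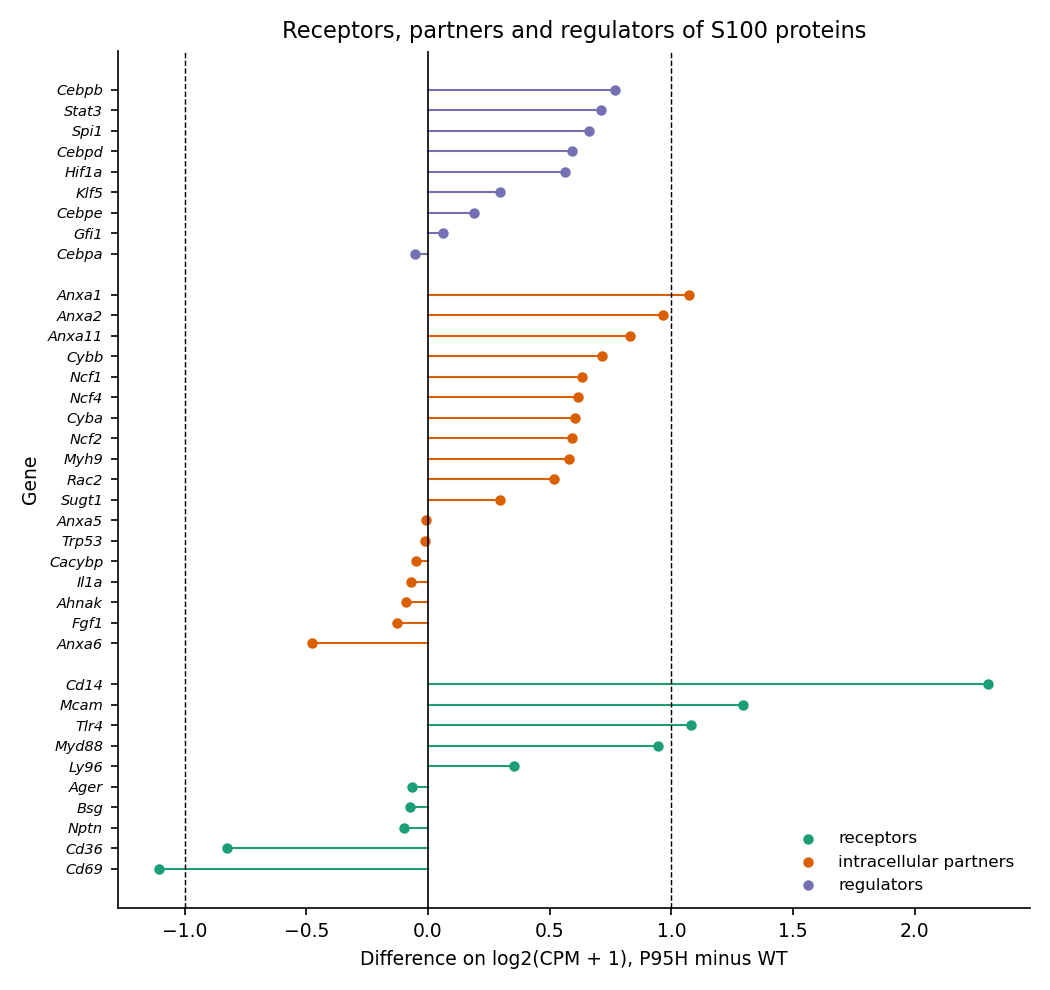
Difference on log2(CPM + 1), P95H minus WT, of each measured receptor (green), intracellular partner (orange) and regulator (purple) of S100 proteins, with dashed lines at 2-fold. Cd14 at 2.30 is the highest, Cd69 at -1.10 the lowest, and 8 of 9 regulators lie between 0 and 1. With plain totals 6 regulators lay above 0 and the median of all genes was -0.18.

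The S100 genes lie in 2 groups on chromosome 3. S100a1, S100a13, S100a4, S100a6, S100a8 and S100a9 follow each other in the table's genes in reference order, and S100a11 and S100a10 follow Tchh. The 5 neighbours taken had ratios from 0.714 (Tdrkh) to 1.34 (Tchh). All 5 lay between the 2-fold limits, as did 7 of the 8 members and 12364 of all 12860 genes. Tdrkh and Them4 were below 1 CPM in P95H marrow. They exceeded the table's limit of 1 CPM in WT marrow alone, which favours a low ratio. Chtop, before S100a1, gave 3036 counts from P95H marrow and 4082 from WT marrow (0.897, 0.856 to 0.940), and Snapin had 769 and 1009 (0.919, 0.836 to 1.01). Tchh, between the groups, had 71 and 64 counts (1.34, 0.941 to 1.91), and Them4, after S100a10, had 34 and 50 (0.820, 0.514 to 1.29).

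Genes outside the family whose levels were closest to a member's in both libraries, by Euclidean distance on log2(CPM + 1) over the 2 libraries, were found for 6 members. Closest to S100a9 was Ngp, a secondary granule protein, at a distance of 0.06, with 22887 CPM in P95H marrow and 11912 in WT marrow, and Ngp was also the closest to S100a8, at 0.51. Next were Rn7sk (0.63) and COX1 (0.75) for S100a8, and COX1 (0.71) and Rn7sk (1.00) for S100a9. Rn7sk and COX1 barely differed between the libraries, at -0.02 and -0.01. For S100a6 the closest were Ifitm2 (0.10), Fbxl5 (0.11) and Atp11b (0.14), and for S100a11 Cd44 (0.03), Plbd1 (0.05) and Vasp (0.06). Tollip (0.02), Map7d1 (0.03) and Bhlhe40 (0.04) were the closest to S100a4, and Trpc4ap (0.01), Fbxw2 (0.02) and D8Ertd738e (0.03) to S100a10. A likeness over 2 libraries is a description only.

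One further S100 family gene of the table is S100b, the form best known from glia. It gave 67 counts from P95H marrow and 54 from WT marrow, or 1.69 and 1.13 CPM, with a ratio of 1.497 (1.03 to 2.18). At this depth its interval reaches from near 1 to past 2-fold.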

How the data were processed

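Ribosome-depleted total RNA of whole marrow was sequenced in 1 run as stranded libraries (9 PCR cycles, 75 bp paired reads), per the labels' protocols. Among the tools in the submitters' processing notes are STAR 2.5.3a, featureCounts and edgeR, with the build mm9. Counting followed a strand setting not given in the sources used here. The raw counts per gene are the authors' deposited values. Their CPM column, a scaled signal that the authors deposited, equals counts over effective library sizes of 39696495 (P95H) and 47880724 (WT) reads, 0.937 and 1.07 times the listed totals. The authors' deposited log2 fold change, fold change ratio and mean columns were not used. All 12860 genes exceed 1 CPM in 1 or both libraries, so all 8 members passed this low limit.

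Ratios of CPM carry exact conditional binomial (Clopper-Pearson) intervals, ratios of ratios exact conditional intervals of the 2 by 2 table, both at 95%, computed with Python 3.11.15 and scipy 1.17.1. No p-value was computed, and the interval functions and the size rule were tested on simulated data. Groups came from the genotype label. Gene order came from RefSeq (GRCm38.p6), which matched 12531 Entrez numbers (97.4%); since that is not the authors' build, it gave order and promoter sequence only. The members, the lists and the rule for named genes (all members, list genes past 2-fold and up to 4 others per list by size of difference, up to 4 neighbours, and the 3 closest genes for 6 members) were chosen with earlier results of these data known. Alternatives were pseudocounts of 0.1 and 5, other library totals, median centring, a minimum of 10 CPM in 1 library, and sizes of 1.5-fold and 4-fold.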

Additional observations from a re-analysis of the deposited data

How the results depend on the processing

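No paired analysis was possible because each genotype has 1 library, and for the same reason no library could be left out. The median difference of the 8 S100 genes, 0.55, was 0.36 with plain totals, 0.41 with totals leaving out haemoglobin and the top 20 genes, and 0.39 with totals without the S100 genes. The count of S100 genes at least 2-fold higher was 1 under each scaling, pseudocount and filter tried, 4 at 1.5-fold and 0 at 4-fold. Of the 10 receptors, 18 partners and 9 regulators measured, 4 were at least 2-fold higher and 1 lower. The count of higher ones was 2 with a pseudocount of 5, plain totals, totals leaving out haemoglobin and the top 20 genes or totals without the S100 genes, and that of lower ones was 2 with plain totals. At 1.5-fold these were 16 and 2, and at 4-fold 1 and 0. All 12860 genes gave 906 and 1039 at 1.5-fold, and 31 and 24 at 4-fold.

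Over all genes 226 were at least 2-fold higher and 270 lower (45.6% higher), against 367 and 593 with a pseudocount of 0.1 (38.2%), 125 and 107 with a pseudocount of 5 (53.9%), 134 and 463 with plain totals (22.4%), 178 and 477 leaving out haemoglobin and the top 20 genes (27.2%), and 150 and 434 without the S100 genes (25.7%). With the CPM filter 163 were higher and 154 lower (51.4% higher). There were 906 and 1039 at 1.5-fold, and 31 and 24 at 4-fold. Other library totals moved the median of all genes by -0.17 to -0.13. The cause of these shifts was not tested.

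The share of counts taken by S100a8 and S100a9 was 4.80% and 2.95% in the P95H and WT libraries without haemoglobin genes in the total. Their sum per marker read, P95H over WT, was 0.929 for the secondary granule list and 0.981 for the mature neutrophil list, and lay on the other side of 1 for the primary granule list (1.32) and, chosen after seeing the data, the monocyte list (1.31). S100a6 per S100a9 read was 1.30, and 1.38 per read of S100a8 and S100a9 summed, also added after seeing the data.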
